A study of Rattus norvegicus with 30 samples.

Results

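Ccl2, Ccl7 and Ccl12 encode secreted chemokines that attract monocytes, and Ccr2 encodes the receptor through which they do so. These 4 genes were followed in whole lung of rats that had inhaled copper oxide nanoparticles. They were chosen by name: each probe whose RefSeq transcript belongs to one of the 4 symbols was taken. Each gene had 1 probe on the array, and all 4 were among the 18420 genes that passed the filter on dim probes, out of 30367 probes in all.

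Adult male Wistar Unilever rats (HsdCpb:WU, an outbred strain, supplied at 8 weeks of age and kept for 2 weeks before exposure) inhaled through the nose alone on 5 consecutive days. They received air, or copper oxide nanoparticles at the equivalent for a 6-hour day of 3.3 mg/m3 (low dose) or 13.2 mg/m3 (high dose). Lungs were taken 1 day after the last exposure (day 6) or 22 days after it (day 28), which gives 6 groups of 5 rats, with 1 array per rat. Rats labelled with a dose of 0 carry the nanoparticle in their treatment label too, and were taken as air controls because the protocol has controls breathe air. Total lung RNA carried the dye Cy5 and a common reference RNA the dye Cy3. The labels call that reference a rat RNA from 14 cell lines in one place and a mouse RNA in another. Every array had the same reference, which cancels when groups are compared as far as its measured signal was the same on each array.

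CC chemokines are small secreted proteins that guide leukocytes through receptors coupled to G proteins. The Ccr2 ligands are made by macrophages, epithelium, endothelium and fibroblasts after signals such as Tnf and Il1b, and Ccr2 is carried above all by inflammatory monocytes, which leave the bone marrow and enter injured lung along the ligands. Ccl2 acts mainly through Ccr2. Ccl7 also binds Ccr1 and Ccr3, and Ccl12 is known as a Ccr2 ligand from work in mouse.

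The data are log2 ratios of Cy5 over Cy3, so that a value of 0 means as much signal in the lung as in the reference. A ratio is relative to each gene's own level in the reference and sets no gene above another. Differences between groups can be compared. Ccl2 and Ccl7 were well above background in both channels on all 30 arrays. Ccl12 and Ccr2 were well above background in the lung channel on 28 arrays each. In the reference channel Ccl12 reached that mark on 3 arrays, all of high dose rats of day 6, and Ccr2 on 0. The ratios of these genes thus stand over a dim reference. The arrays' median Cy5 intensity lay between 216 and 432. The labelled tissue showed in its markers: the mean log2 ratio of 6 alveolar type II genes, such as the surfactant genes, lay between 5.61 and 6.55 in all rats, and that of 6 alveolar type I genes between 3.66 and 4.75. In the lung of air rat 4 of day 6, heart muscle genes were far above the other air rats, with a mean log2 ratio over 6 genes of 4.80 against a median of 0.01 in its group, and the values of the 4 members that use it are also given without it. Low dose rat 49 of day 6 (2.85), low dose rat 54 (2.06) and high dose rat 83 (2.14) of day 28 were the next highest in that mean.

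The promoters are shown because the ligand genes moved together while the receptor moved far less. The windows hold 250 bases before and 50 after each start in RefSeq's table of assembly GRCr8, which holds 3 of the 4 members. Ccl7 lies at chr10:67513845-67514144, Ccl12 at chr10:67567626-67567925 and Ccr2 at chr8:132611953-132612252, all on the plus strand. Capitals mark matches to any of 5 motifs searched on both strands.
Ccl7: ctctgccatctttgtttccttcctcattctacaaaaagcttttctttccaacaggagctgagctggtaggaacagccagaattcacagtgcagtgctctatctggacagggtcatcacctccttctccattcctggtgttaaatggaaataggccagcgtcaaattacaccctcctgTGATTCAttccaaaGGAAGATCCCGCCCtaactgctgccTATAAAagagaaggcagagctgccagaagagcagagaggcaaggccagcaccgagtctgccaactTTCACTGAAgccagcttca
Ccl12: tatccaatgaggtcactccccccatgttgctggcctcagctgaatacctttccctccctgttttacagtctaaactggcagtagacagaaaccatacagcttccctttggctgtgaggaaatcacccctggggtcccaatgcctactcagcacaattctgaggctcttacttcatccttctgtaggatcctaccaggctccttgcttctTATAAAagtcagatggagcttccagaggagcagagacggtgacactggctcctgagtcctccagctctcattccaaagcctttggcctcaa
Ccr2: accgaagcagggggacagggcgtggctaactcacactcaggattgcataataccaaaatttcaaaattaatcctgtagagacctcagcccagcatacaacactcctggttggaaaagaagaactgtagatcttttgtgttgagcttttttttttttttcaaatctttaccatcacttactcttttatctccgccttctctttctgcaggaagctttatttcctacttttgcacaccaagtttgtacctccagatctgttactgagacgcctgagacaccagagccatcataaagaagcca
The Ccl7 window held the NF-kB consensus on the minus strand at -59 to -50, found in 7.51% of 33469 promoters of this length. It also held the AP-1 letters TGANTCA at -73 to -67 (7.33% of promoters) and the Stat letters TTCNNNGAA at 32 to 40 (8.87%). A GC box, GGGCGG, lay on the minus strand at -51 to -46 and overlapped the NF-kB match (33.1%). TATAAA stood at -34 to -29 in Ccl7 and at -41 to -36 in Ccl12 (14.2%). The Ccl12 window held no other match and the Ccr2 window held none. A match of letters is a description and not a binding site.

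On day 6 all 3 ligands had risen at both doses, and more at the high dose. Ccl2 log2 ratios in air rats 1 to 5 were -5.07, -4.11, -5.03, -3.75 and -4.63. In low dose rats 47 to 51 they were -0.99, -1.09, -2.20, -0.33 and -1.74, and in high dose rats 75 to 79 they were 1.13, -0.05, 1.61, 1.89 and 1.33. The groups formed 3 steps that did not overlap: the lowest low dose rat stood above every air rat, and the lowest high dose rat above every low dose rat.

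Ccl7 showed the same steps. Its values were -4.02, -3.36, -4.41, -3.12 and -3.96 in the air rats. They were -0.40, -0.65, -1.36, -0.04 and -1.26 in the low dose rats, and 1.74, 0.33, 2.27, 2.55 and 2.07 in the high dose rats. The lowest rat of each exposed group again stood above every rat of the group below it, and all 5 high dose rats lay above the reference.

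Ccl12 went furthest at the high dose. Its values were 0.15, 0.92, 0.41, 0.44 and 0.93 in the air rats, 2.93, 3.52, 3.11, 5.22 and 2.98 in the low dose rats, and 7.30, 5.55, 7.40, 7.37 and 6.63 in the high dose rats. The groups did not overlap here either, although low dose rat 50, far above the rest of its group, came close to high dose rat 76, the lowest of its own. In the authors' deposited values these 2 rats crossed, with 5.84 in rat 50 and 5.74 in rat 76. In the lung channel alone, the normalized log2 Cy5 signal of Ccl12 was 6.96 ± 0.40 in air, 10.1 ± 1.01 at the low and 13.6 ± 0.76 at the high dose (SD, n = 5).

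**Figure D1:**
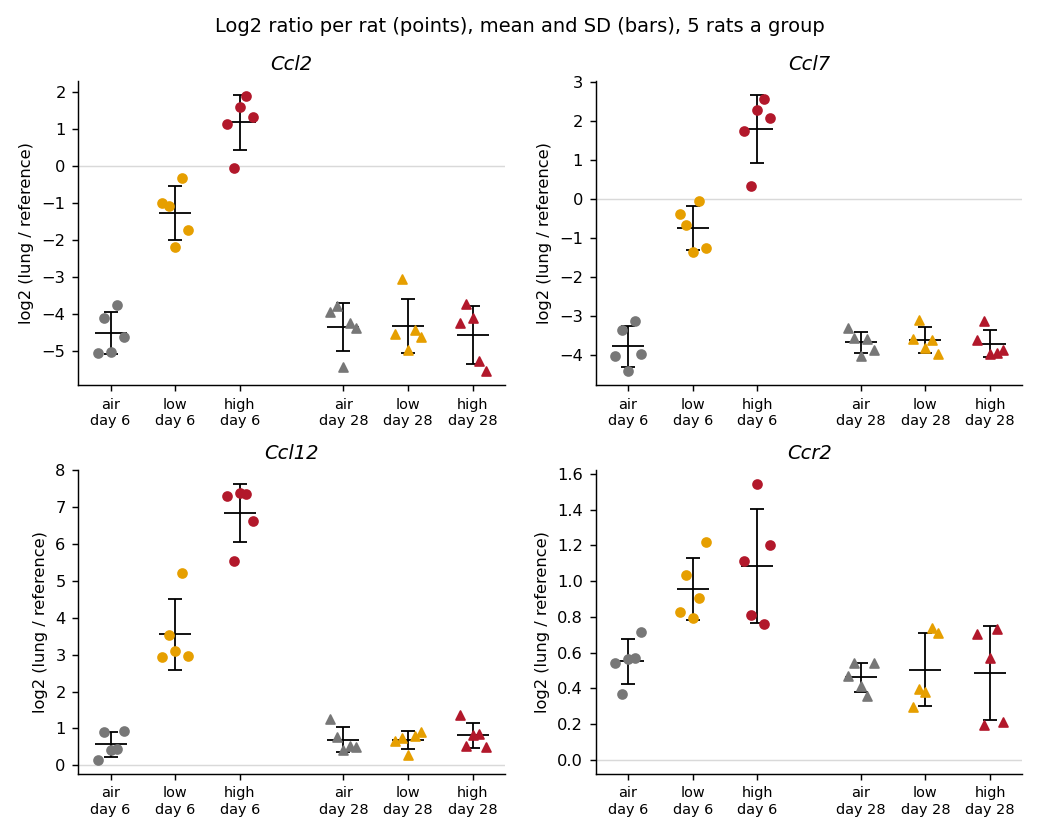
Log2 ratio of lung over reference for Ccl2, Ccl7, Ccl12 and Ccr2 (y axis, scaled per gene) in each rat by dose and day (x axis); points are rats, circles day 6, triangles day 28, and bars give the mean and SD of 5 rats. On day 6 the ligands stand in 3 separate steps, while the Ccr2 values of the low and high dose overlap, and on day 28 all groups of each gene overlap.

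At the high dose, limma's fit across all genes gave log2 fold changes over air of 5.70 ± 0.42 for Ccl2 (SE; adjusted p = 2.00e-11), 5.56 ± 0.31 for Ccl7 (adjusted p = 1.12e-13) and 6.28 ± 0.34 for Ccl12 (adjusted p = 4.84e-14). These are 52.1-fold, 47.3-fold and 77.8-fold differences. Among the 18420 genes, sorted by log2 fold change, Ccl12 had rank 1, Ccl2 rank 2 and Ccl7 rank 3. All 4 members passed the threshold upwards in this comparison, in which 21.1% of all genes did so and 36.5% passed in either direction. The exposed and air rats did not overlap for any of the 4, as for 16.8% of all genes upwards. In the authors' deposited values they overlapped for Ccr2.

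The ligands at the low dose were 9.50-fold (Ccl2), 8.17-fold (Ccl7) and 7.92-fold (Ccl12) over air. Their log2 fold changes were 3.25 ± 0.42 (adjusted p = 3.97e-06), 3.03 ± 0.31 (adjusted p = 1.10e-07) and 2.99 ± 0.34 (adjusted p = 5.32e-07). In this comparison 6.72% of all genes passed the threshold in either direction and 4.97% passed upwards, as did 3 of the 4 members. With Agilent's processed signals in place of the corrected medians, the Ccl12 value was 4.15.

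The high dose also exceeded the low dose for each ligand. The log2 difference was 2.45 ± 0.42 for Ccl2 (adjusted p = 0.000163), 2.53 ± 0.31 for Ccl7 (adjusted p = 1.78e-06) and 3.30 ± 0.34 for Ccl12 (adjusted p = 1.20e-07). The Ccl12 difference was the highest of all 18420 genes, of which 11.9% passed in either direction, 8.01% passed upwards and 5.87% did not overlap upwards. It was 2.55 with Agilent's processed signals. The comparisons of each dose with air share the 5 air rats.

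Slides held 1 or 2 rats of each of these groups, so that the differences could also be read within each of the 4 slides. High dose over air ranged from 4.80 to 6.64 for Ccl2, from 4.31 to 6.68 for Ccl7 and from 5.01 to 6.99 for Ccl12. Low dose over air ranged from 1.78 to 4.70, from 1.81 to 4.37 and from 2.02 to 4.81 in the same order. Every within-slide difference of the ligands was thus upwards. With slide as a block in the fit, the high dose values were 5.64, 5.47 and 6.22 and the low dose values 3.25, 3.03 and 2.95. Without air rat 4 the high dose values were 5.89, 5.73 and 6.25 and the low dose values 3.44, 3.19 and 2.95 for Ccl2, Ccl7 and Ccl12, each past the threshold.

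**Figure D2:**
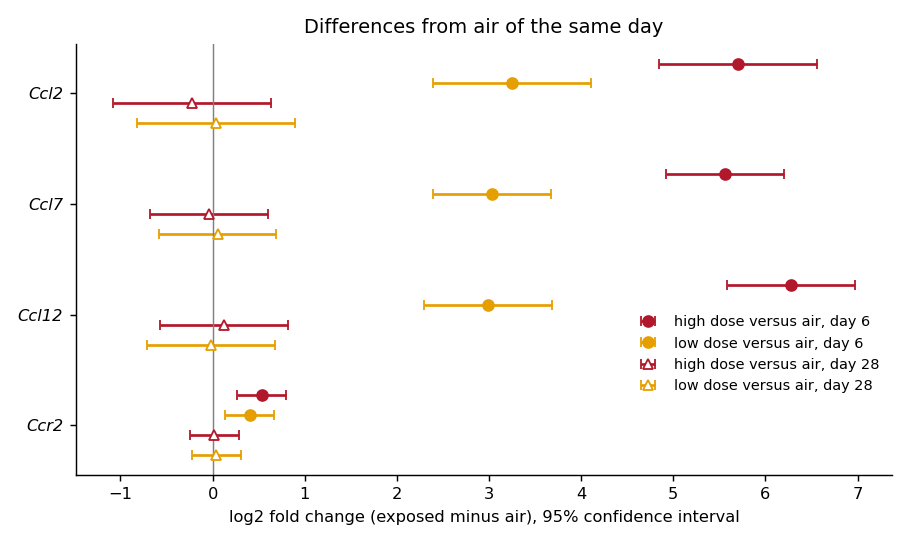
Log2 fold change of exposed over air rats of the same day (x axis) for the 4 genes (y axis); filled circles are day 6, open triangles day 28, red the high and orange the low dose, and bars the 95% confidence interval of the fit with 5 rats a group. The ligands lie between 2.99 and 6.28 on day 6, Ccr2 lies at 0.40 and 0.53, and every day 28 interval includes 0.

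Ccr2, the receptor, rose far less. Its values were 0.54, 0.37, 0.56, 0.57 and 0.72 in the air rats, 0.83, 1.03, 0.79, 0.91 and 1.22 in the low dose rats, and 1.11, 0.81, 1.55, 0.76 and 1.20 in the high dose rats. The lowest exposed rat stood above the highest air rat, and the 2 doses overlapped. In the authors' deposited values, high dose rat 78 (0.81) fell below air rat 5 (0.84).

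Ccr2 was 1.45-fold over air at the high dose, a log2 fold change of 0.53 ± 0.13 (SE; limma, adjusted p = 0.00177, 95% interval 0.27 to 0.80). Its rank among the increases was 2076 of 18420. With Agilent's processed signals the value was 1.16, above that interval, and no longer passed (adjusted p = 0.0556). Under the other settings with all rats it ran from 0.53 to 1.16, so the size of the rise depended on the processing and 0.53 is its low end. At the low dose the log2 fold change was 0.40 ± 0.13 (95% interval 0.14 to 0.67) and just missed the threshold (limma, adjusted p = 0.0570). The groups did not overlap, as for 5.37% of all genes upwards. The low dose value passed under 5 other settings and without low dose rat 49 (0.45, adjusted p = 0.0483). Without air rat 4 the Ccr2 values were 0.54 at the high dose (adjusted p = 0.00356) and 0.41 at the low dose (adjusted p = 0.0766).

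The doses could not be told apart for Ccr2. The high minus low difference was 0.13 with a 95% interval of -0.14 to 0.40 (limma, adjusted p = 0.606). With Agilent's processed signals it turned to -0.14 (adjusted p = 0.901), and the low dose value over air was then 1.30 (adjusted p = 0.0953). Within slides, Ccr2 lay over air by 0.18 to 0.98 at the high and by 0.34 to 0.46 at the low dose. In the lung channel alone, log2 Cy5 of Ccr2 was 6.86 ± 0.08 in air, 7.30 ± 0.18 at the low and 7.53 ± 0.28 at the high dose (SD, n = 5).

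In a bulk sample, more cells that carry a transcript and more transcript per cell cannot be told apart, and this holds for all 4 genes. The 2 spots of the Ccr2 probe differed on an array by a median SD of 0.32 in Agilent's processed log ratios. The SD between rats within groups was 0.21 in the corrected and normalized log2 ratios averaged over spots. These SDs are on unlike scales and do not set spot noise above the spread of rats. For Ccl2, on the same unlike scales, the 10 spots had a median SD of 0.05 and the rats one of 0.71.

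By day 28 the ligands lay at the level of air rats. Ccl2 was -3.94, -3.79, -5.44, -4.24 and -4.39 in air rats 6 to 10, -4.55, -3.05, -4.98, -4.43 and -4.62 in low dose rats 52 to 56, and -4.25, -3.73, -4.11, -5.27 and -5.55 in high dose rats 80 to 84. Ccl7 was -3.30, -3.57, -4.01, -3.59 and -3.85 in air, -3.58, -3.09, -3.81, -3.61 and -3.97 at the low dose, and -3.61, -3.13, -3.97, -3.95 and -3.85 at the high dose. The 3 groups overlapped for both genes, and no exposed rat of day 28 reached the lowest exposed rat of day 6.

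Ccl12 and Ccr2 overlapped between groups on day 28 too. Ccl12 was 1.25, 0.78, 0.41, 0.53 and 0.51 in air, 0.66, 0.74, 0.29, 0.80 and 0.92 at the low dose, and 1.36, 0.54, 0.82, 0.85 and 0.51 at the high dose. Ccr2 was 0.47, 0.54, 0.41, 0.36 and 0.54 in air, 0.30, 0.40, 0.38, 0.74 and 0.71 at the low dose, and 0.70, 0.19, 0.57, 0.73 and 0.21 at the high dose.

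On day 28, limma called 0 of the 4 members at either dose, where 0.185% of all genes passed at the high and 0.0109% at the low dose. At an unadjusted p under 0.05 it was 0 of 4 too, where 15.1% of all genes passed at the high and 5.96% at the low dose. High dose over air was -0.22 for Ccl2 (95% interval -1.08 to 0.63), -0.04 for Ccl7 (-0.68 to 0.60), 0.12 for Ccl12 (-0.57 to 0.82) and 0.02 for Ccr2 (-0.25 to 0.29). The intervals exclude changes of the size seen on day 6 for the ligands. They do not exclude a remaining difference of a smaller size, such as a Ccl12 log2 fold change of 0.82. High against low dose likewise called 0 of 4 members on day 28, with 0.141% of all genes past the threshold. It was also 0 at an unadjusted p under 0.05, where 2.6% of all genes passed.

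Between the days all 4 genes fell in exposed rats. High dose rats of day 28 lay below those of day 6 by log2 differences of -5.77 ± 0.42 for Ccl2 (SE; limma, adjusted p = 2.07e-11), -5.49 ± 0.31 for Ccl7 (adjusted p = 1.59e-13) and -6.03 ± 0.34 for Ccl12 (adjusted p = 1.45e-13). In the low dose rats the differences were -3.06, -2.87 and -2.87 (adjusted p = 1.07e-05, 2.93e-07 and 1.06e-06). Ccr2 fell by 0.60 in the high dose rats (adjusted p = 0.000612) and by 0.45 in the low dose rats (adjusted p = 0.0223). All 4 members passed downwards at each dose and did not overlap. In the authors' deposited values the days overlapped for Ccr2 at each dose. In the high dose rats 33.6% of all genes passed, 20% downwards, and 11.3% did not overlap downwards. In the low dose rats 11.9% passed, 7.94% downwards, and 5.59% did not overlap downwards.

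The low dose fall of Ccr2 lost its call when any of 4 rats was left out, namely low dose rats 48 and 51 of day 6 and 53 and 54 of day 28 (adjusted p = 0.0552 to 0.0824). Both Ccr2 falls also missed the threshold with Agilent's processed signals, at -1.06 and -1.15. Air rats of day 28 did not differ from those of day 6 by a called amount: limma called 0 of 4 members, with 2.95% of all genes past the threshold. At an unadjusted p under 0.05 it was 0 of 4 too, where 24.1% of all genes passed. The differences between the air rats of the days were 0.16, 0.11, 0.13 and -0.09 for Ccl2, Ccl7, Ccl12 and Ccr2. With air rat 4 of day 6 left out they were 0.35, 0.27, 0.09 and -0.08 and did not pass.

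For each ligand, then, the order of levels was high dose of day 6, low dose of day 6, and below them air of both days and both doses of day 28, which did not differ beyond their spread. For Ccr2 both exposed groups of day 6 lay above the other 4 groups without overlap in these ratios. Neither these 2 groups nor the other 4 differed among themselves beyond their spread, and the step from air to the low dose did not pass the threshold. The Ccr2 separation was lost with median centring, where high dose rat 76 of day 6 (0.75) lay below low dose rat 55 of day 28 (0.79). It was also lost in the authors' deposited values, with 0.81 in high dose rat 78 of day 6 and 1.01 in high dose rat 83 of day 28.

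The change of the dose effect between the days was tested directly. It was -5.93 ± 0.59 for Ccl2 (SE; limma, adjusted p = 2.72e-08), -5.60 ± 0.44 for Ccl7 (adjusted p = 4.35e-10) and -6.16 ± 0.48 for Ccl12 (adjusted p = 3.40e-10) at the high dose. At this contrast 16.7% of all genes passed, 11.2% downwards, and 3 of the 4 members. For Ccr2 it was -0.51 ± 0.18 and just missed the threshold (adjusted p = 0.0533). It passed with slide as a block (-0.57, adjusted p = 0.0129). It also passed without air rat 5, high dose rat 76 or high dose rat 78 of day 6, or high dose rat 80 or 83 of day 28 (log2 -0.60 to -0.55, adjusted p = 0.0254 to 0.0495). At the low dose the ligands changed by -3.22, -2.98 and -2.999 (adjusted p = 0.00150, 0.000151 and 0.000337), where 1.95% of all genes passed, 1.64% downwards. Ccr2 changed by -0.36 (adjusted p = 0.505). Without air rat 4 of day 6 the changes were -6.12, -5.77, -6.13 and -0.52 at the high and -3.41, -3.14, -2.97 and -0.37 at the low dose for Ccl2, Ccl7, Ccl12 and Ccr2, with the same calls.

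The ligands also varied together among rats of the same group. Rat 76 was the lowest high dose rat of day 6 for all 3 ligands, and rat 50 the highest low dose rat for all 3. Over the deviations of the 30 rats from their group means, Ccl2 and Ccl7 correlated at r = 0.843 and rho = 0.853. In each of the 6 pairs of members the p came from 100000 permutations of the rats within groups. For this pair both were 6e-05 after Benjamini-Hochberg adjustment, and the unadjusted value of 1e-05 is the smallest these permutations can give. Without the 2 rats farthest from the median of Ccl2, r was 0.831.

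Ccl2 and Ccl12 correlated less closely, at r = 0.575 and rho = 0.552 (permutation, adjusted p = 0.00615 and 0.00900). Ccl7 and Ccl12 gave r = 0.621 and rho = 0.497 (permutation, adjusted p = 0.0131 and 0.0264). Without the 2 rats farthest from the median of Ccl2, and of Ccl7 for the second pair, r was 0.531 and 0.452. Low dose rat 50 of day 6, with a Ccl12 deviation of 1.67, was not among them, and its part was not tested. Over all rats Ccr2 showed no such relation that passed the test: its r was 0.04 with Ccl2, -0.04 with Ccl7 and 0.27 with Ccl12 (permutation, adjusted p = 0.892, 0.892 and 0.374).

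The Ccl2 and Ccl7 relation held on each day (r = 0.966 on day 6 and 0.783 on day 28, 15 rats each) and within each of the 4 slides (r = 0.786 to 0.946). That of Ccl2 with Ccl12 was 0.739 on day 6 and 0.384 on day 28, and within slides it ranged from 0.348 to 0.764. That of Ccl7 with Ccl12 was 0.699 and 0.233 on the days and 0.429 to 0.825 within slides. That of Ccl12 with Ccr2 was 0.169 on day 6 and 0.606 on day 28, and -0.142 to 0.705 within slides. Both values of a rat come from 1 array and 1 RNA sample, and the part of that shared source was not tested.

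**Figure D3:**
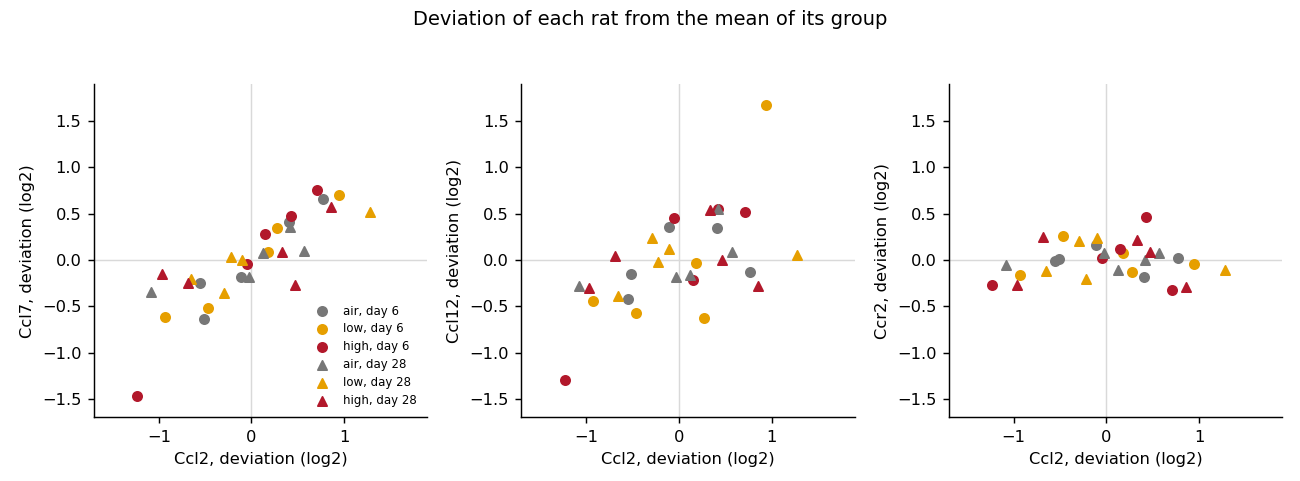
Deviation of each rat from its group's mean log2 ratio for Ccl7, Ccl12 and Ccr2 (y axes) against that for Ccl2 (x axes), with circles for day 6 and triangles for day 28, in grey for air, orange for low and red for high dose. Ccl7 follows Ccl2 closely (r = 0.843), Ccl12 less so (r = 0.575), and Ccr2 does not follow it over all rats (r = 0.04).

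The genes with a symbol whose log2 ratios were most like those of the ligands over the 30 rats were largely the other ligands, as a description that includes the group differences. For Ccl2 they were Ccl7 (Pearson r = 0.988), Ccl12 (0.967) and Rhbdl2 (0.964). For Ccl7 they were Ccl2, Spp1 (0.981), a secreted matrix protein of macrophages, and Ccl12 (0.980). For Ccl12 they were Ccl7, the T cell and monocyte attractant Ccl1 (0.977) and Serpina11 (0.976). Ccl1 was well above background on only the 10 arrays of exposed rats of day 6, so that its r sets these against values at the background. For Ccr2 they were Tc2n (0.906), Txnrd3 (0.900) and the secreted phospholipase Pla2g10 (0.899).

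The 3 ligand genes lie in 1 cluster of chemokine genes on chromosome 10, in the order Ccl2, Ccl7, Ccl11, Ccl12 and Ccl1 among the protein-coding genes of RefSeq's GRCr8 table. Ccl11 and Ccl1 are described for that place, after their values had been seen. Ccl11, an attractant of eosinophils, lies between Ccl7 and Ccl12 and went the other way. Its log2 fold change was -1.86 ± 0.28 at the high dose on day 6 (SE; limma, adjusted p = 4.80e-06) and -0.85 ± 0.28 at the low dose (adjusted p = 0.0610), which passed under 2 other settings. Ccl1 was not well above background in any air rat of day 6 or in any rat of day 28, so its increase has only a lower bound. In normalized Cy5 signal it was at least 11.4-fold higher at the high dose (limma, adjusted p = 3.58e-12) and at least 4.10-fold higher at the low dose (adjusted p = 9.39e-07). The bound sets the exposed mean against the higher, on each air array, of the Ccl1 signal and the lowest signal of a probe well above background. Without air rat 4 the Ccl11 values were -1.88 and -0.87, and the calls of Ccl11 and Ccl1 were the same. On day 28 the high dose value of Ccl11 was 0.18 and did not pass.

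Of the other receptors of Ccl7, 1 passed the test at the high dose on day 6. Ccr1, which Ccl7 can also bind, was higher by 0.66 ± 0.18 at the high dose (SE; limma, adjusted p = 0.00412) and had a value of 0.13 at the low dose. Ccr3, the other receptor of Ccl7 and the receptor of Ccl11, was well above background on 2 of 5 high dose arrays and on 0 of 5 air arrays and did not pass at the high dose (adjusted p = 0.0891).

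**Figure D4:**
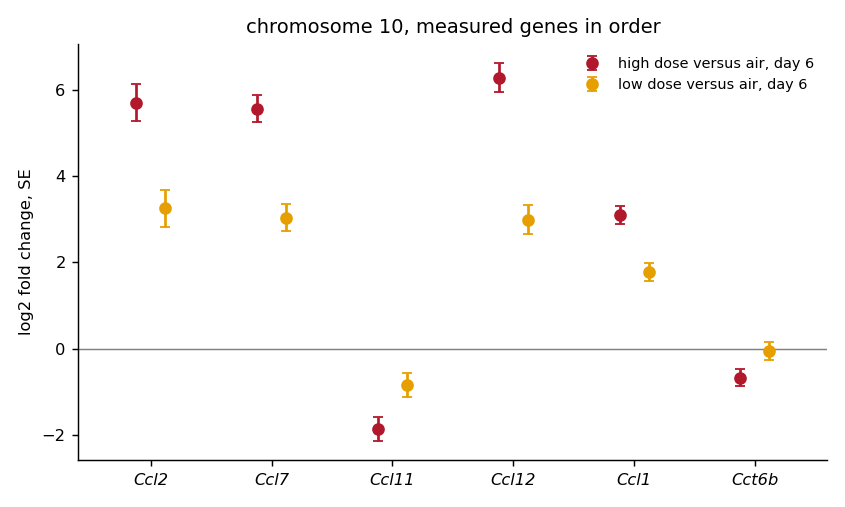
Log2 fold change over air on day 6 (y axis, with SE bars) of the measured genes next to the ligands on chromosome 10, in gene order and not to scale (x axis); red is the high and orange the low dose, 5 rats a group. Ccl11 lies between Ccl7 and Ccl12 and below 0, and Ccl1 lies above 0 at both doses, with a fitted value over air rats in which it was not well above background.

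Of 17 other CC chemokines, 14 were measured. At the high dose on day 6, 5 were higher and 3 lower, with a median log2 fold change of -0.04 beside 0.01 over all genes. Of all genes 21.1% passed upwards and 36.5% in either direction at that dose, and 4.97% and 6.72% at the low dose. Each day 6 count of a list that follows is to be read beside these shares. The smallest p belonged to the attractants of Ccr4-bearing T cells, Ccl17 (3.28 ± 0.15, limma, adjusted p = 4.14e-15) and Ccl22 (2.79 ± 0.15, adjusted p = 3.60e-14). At the low dose 4 were higher and the other 10 did not pass, with a median of 0.27. The call of Ccl4 among these 4 (0.48, adjusted p = 0.0456) was lost under 5 other settings and without air rat 4. Ccl17 and Ccl22 stood at 3.39 and 3.22 there. Their high minus low differences were -0.12 and -0.42 and did not pass (adjusted p = 0.712 and 0.0596), where each Ccr2 ligand passed upwards.

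A list of 13 other CC receptors and scavenging receptors held 8 measured genes, of which 3 were higher and 1 lower at the high dose, with a median of 0.34. Ccr1, the lymph node homing receptor Ccr7 (0.49) and Ccr10 (0.41) were higher, the last with a call lost under 4 other settings. Ackr3, a receptor that takes up Cxcl12, was lower by -0.72 ± 0.14 (limma, adjusted p = 0.000132). Ackr2, the scavenger of Ccl2 and Ccl7, was not measured here.

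Among cytokines and NF-kB genes upstream of the ligands, 12 of 19 were measured, with 7 higher and 1 lower at the high dose and a median of 0.53. The lower gene was Jun, at -1.06 ± 0.26 (limma, adjusted p = 0.00175). The receptor Tnfrsf1b was higher by 1.67 ± 0.19 (limma, adjusted p = 6.99e-08), Il1b by 2.04 ± 0.26 (adjusted p = 5.27e-07) and Tnf by 1.83 ± 0.30 (adjusted p = 1.62e-05). Il1b was the 1 gene of the list to pass at the low dose, at 1.56 ± 0.26 (adjusted p = 0.000182), while Tnf had a value of 0.27 (adjusted p = 0.662). Tnf log2 ratios ran from -0.46 to 0.73 in air, from -0.39 to 1.04 at the low dose and from 1.34 to 2.48 at the high dose. The low dose rats thus overlapped the air rats for Tnf. The part of Tnf, Il1b and the other genes of this list in the levels of the ligands was not tested.

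Of 15 negative regulators 11 were measured, with 5 higher and 1 lower at the high dose and 2 higher at the low dose. Nfkbie, an inhibitor of NF-kB, was higher by 1.26 ± 0.11 (limma, adjusted p = 3.66e-10). Zc3h12a, a ribonuclease that degrades cytokine mRNA, was higher by 1.45 ± 0.17 (adjusted p = 7.46e-08). At the low dose they stood at 0.46 and 0.59 and passed, but not with arrays centred on the median.

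Of 17 G protein and migration genes downstream of Ccr2, 13 were measured, with 5 higher and 1 lower at the high dose. Of all genes 21.1% passed upwards there and 36.5% in either direction. Under other settings the number of higher genes ran from 2 to 6. Itgam, the alpha chain of the integrin Mac-1, was higher by 2.14 ± 0.19 (limma, adjusted p = 4.55e-10), and Arrb2, an arrestin that switches off chemokine receptors, by 0.49 ± 0.11 (adjusted p = 0.00127), a call lost with median centring (0.38, adjusted p = 0.0534). Among 9 measured growth and survival factors of monocytes and their receptors, 6 were higher and the other 3 did not pass. Csf1, the main macrophage growth factor, was higher by 0.95 ± 0.12 (adjusted p = 3.68e-07) and Cx3cl1 by 1.05 ± 0.17 (adjusted p = 1.72e-05). The Csf1 receptor Csf1r was higher by 0.62 ± 0.24 (adjusted p = 0.0421), a call lost under 6 other settings and without air rat 4 (0.45, adjusted p = 0.147).

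Markers of several kinds of leukocyte were also higher on day 6. Of 15 measured monocyte markers, 10 were higher and 2 lower at the high dose, with a median of 1.15, and 5 were higher and 1 lower at the low dose. Of all genes 21.1% passed upwards at the high and 4.97% at the low dose. Their mean log2 ratio per rat ran from 0.82 to 1.00 in air, from 1.16 to 1.37 at the low dose and from 1.66 to 2.17 at the high dose. Hp, haptoglobin, was higher by 2.25 ± 0.18 (limma, adjusted p = 1.76e-10) and Fcgr1a, the high affinity IgG receptor, by 1.91 ± 0.15 (adjusted p = 1.37e-10). Nr4a1 and F13a1 were lower. The listed markers Clec4e, Ms4a7 and Spn were not measured here.

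Macrophage, neutrophil and T cell markers moved too. Of 18 macrophage markers 13 were higher and 1 lower at the high dose, with the smallest p for Mmp12 (4.04 ± 0.17, limma, adjusted p = 2.77e-16) and Spp1 (3.06 ± 0.24, adjusted p = 5.40e-11), while Pparg fell. The count of higher macrophage markers ran from 7, with Agilent's processed signals, to 13 under other settings. The mean of the macrophage markers ran from 0.52 to 0.74 in air, from 0.96 to 1.51 at the low dose and from 1.02 to 2.20 at the high dose. Of 8 neutrophil markers 6 were higher and 1, Cxcr1, lower, led by Il1r2 (2.38 ± 0.15, adjusted p = 1.96e-12), and their mean ran from 0.24 to 0.55 in air and from 1.33 to 1.73 at the high dose. Low dose rats had a median of 1.42 in that mean and a lowest value of 1.16, beside a median of 1.36 at the high dose. Over air, 5 of the 8 were higher at the low dose and 1, Cxcr1, lower, a call lost without air rat 4. High against low dose called 0 of the 8 higher and 1 lower. All 11 T cell markers were higher at the high dose, led by Icos (1.75 ± 0.16, adjusted p = 1.34e-09). Their mean ran from -0.64 to -0.38 in air, from -0.45 to 0.01 at the low dose and from -0.12 to 0.43 at the high dose. With median centring 8 of the 11 T cell markers passed, and with Agilent's processed signals 9.

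When air rat 4 was left out, 9 monocyte markers were higher at the high dose in place of 10, and the counts of the macrophage, neutrophil and T cell lists were the same there. Rat 76, the lowest high dose rat for the 3 ligands, also had the lowest mean of the monocyte and macrophage markers in its group. The same held for the dendritic cell markers and for each of the 6 pathway lists. Its array had the lowest share of probes well above background in that group (61.9%). In the other marker lists another rat was lowest, such as rat 77 for the neutrophil markers and rat 78 for the T cell markers. The part of these cell types in the levels of the ligands and of Ccr2 was not tested. Of the tissue's own cells, 3 of 8 endothelial and 4 of 6 alveolar type I markers were lower at the high dose and the others did not pass. Under other settings the endothelial count ran from 2 to 6 and the alveolar type I count from 3 to 6. Of 7 NK cell markers 1 was higher and of 5 dendritic cell markers 2 were, with 1 to 3 under other settings. At this dose 21.1% of all genes passed upwards and 36.5% in either direction. Of 4 B cell markers limma called 0, and 0 at an unadjusted p under 0.05, a mark that 45.2% of all genes passed.

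On day 28, limma called 0 genes of the 6 pathway lists and of the monocyte, macrophage, neutrophil and T cell lists at either dose. Of 5 measured dendritic cell markers 1 passed at the high dose, Batf3, a transcription factor of these cells, at 0.52 ± 0.11 (adjusted p = 0.0357), named after its value was seen. At an unadjusted p under 0.05, 4 of 15 monocyte and 4 of 18 macrophage markers passed at the high dose and 1 and 3 at the low dose, with 3 of 8 neutrophil markers at the high and 0 at the low dose. Over all genes 15.1% passed that mark at the high and 5.96% at the low dose. The mean of the monocyte markers ran from 0.64 to 1.01 in air and from 0.62 to 1.22 at the high dose.

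**Figure D5:**
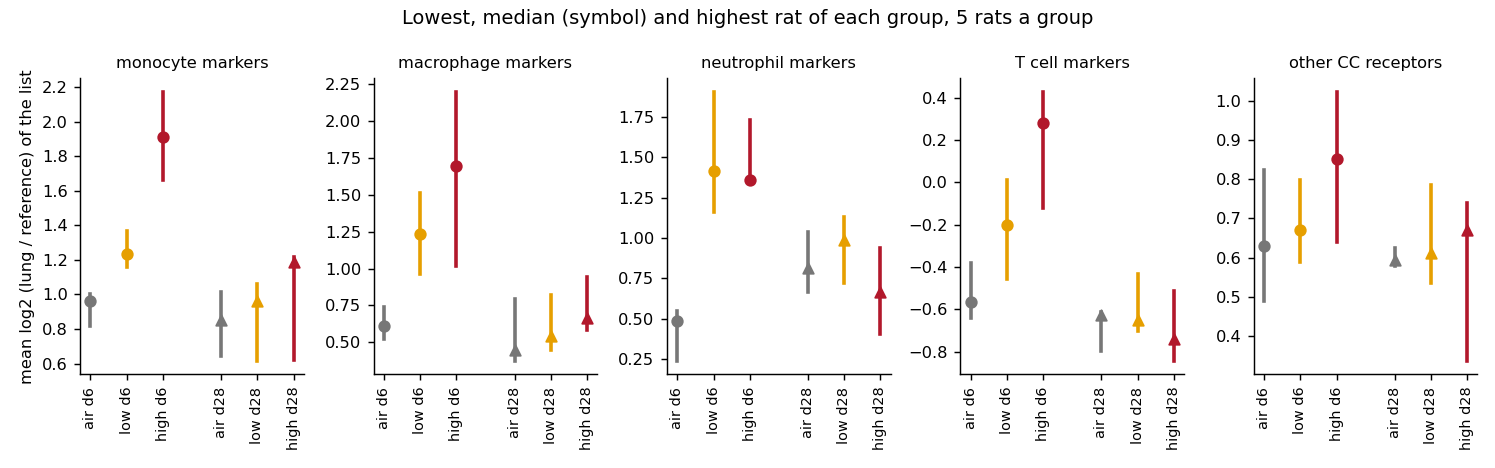
Mean log2 ratio of lung over reference over the measured genes of 4 marker lists and of the other CC receptors (y axes, scaled per list) by dose and day (x axes); lines run from the lowest to the highest rat and symbols mark the median of 5 rats. The monocyte, macrophage and neutrophil lists of the exposed rats lie above air on day 6, and on day 28 the groups overlap.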

How the data were processed

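Each of the 30 rats had 1 two-colour Agilent array with 62976 spots. The deposited scanner files hold spot intensity made with Feature Extraction 11.0.1.1, per the file headers; median spot and median local background intensity of both channels were used. The authors' deposited value table gives log2 ratios per probe, whose later steps are not given in the sources used here. They correlated at 0.997 to 1.000 with loess-normalized log2 ratios without background correction, and column medians lay between -0.0314 and -0.00539, so they were read as log2 of lung over reference.

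Signals were corrected with normexp (offset 50) and normalized by loess within arrays, without control spots. Flagged spots were left out and spots of a probe averaged. Probes well above background in Cy5 on at least 5 of 30 arrays were kept (20852 of 30367), with the brightest probe for each of 18420 genes. Of these, 11331 had a symbol. Where a probe had none, its systematic name on the array counted as a gene, and all shares and ranks over all genes include these. RefSeq accessions were matched to a GRCr8 gene table, and the arrays' coordinates, of an older build, were not used. Group means of the 6 groups were fitted with limma 3.58.1 in R 4.3.3. The 11 contrasts were adjusted by Benjamini-Hochberg over all genes, with a threshold of 0.05, and adjusted p-values are from this fit unless a permutation is named. The design had foreseen log2 ratios of these signals, and the median spot signal is the one used. The fit was tested on simulated data. The number of rats limits the precision, with a median SE of 0.115. Slides (4) were read from the scan labels. Alternatives were the normalization, background correction, filter, source of values, probe summary, groups in the fit, slide as a block and each rat left out. The normexp offset of 10 was added after seeing the data.

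The members and the lists were chosen with earlier results of these data known. Named genes were the 4 members, from each pathway list the 2 genes with the smallest p for high dose over air on day 6, leading genes of the marker lists that moved, and a fixed panel of receptors and cytokines. Genes outside it, such as Nr4a1, F13a1, Pparg, Cxcr1 and Jun, which are the lower members of their lists, and Ccr7 and Ccr10, were named after their values were seen. Heart muscle, airway, fibroblast and alveolar type II lists had at the high dose on day 6 counts of higher and lower genes of 0 and 0 of 6, 0 and 1 of 6, 2 and 2 of 9 and 2 and 1 of 6. A gene of the receptor list is not reported here and was left out of that list's counts, median and mean.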

Additional observations from a re-analysis of the deposited data

Results flagged for a closer look

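Among 24 sets of 5 rats (4 genes in 6 groups), 2 held a rat far from the others by Dixon's criterion, and chance gives about 1 in 20. Low dose rat 53 of day 28 had a Ccl2 log2 ratio of -3.05, while the other 4 lay between -4.98 and -4.43. Low dose rat 50 of day 6 had a Ccl12 log2 ratio of 5.22, while the other 4 lay between 2.93 and 3.52.

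The dose effect on each ligand differed between the days by the test of the difference itself. From day 6 to day 28 the high dose effect changed by -5.93 for Ccl2, -5.60 for Ccl7 and -6.16 for Ccl12 on the log2 scale. The low dose effect changed by -3.22 for Ccl2, -2.98 for Ccl7 and -2.999 for Ccl12. All 5 rats of each exposed group of day 6 lay above all 5 air rats for these genes, while the groups of day 28 overlapped.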

How the results depend on the processing

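Under the alternatives, 501 of 501 called ligand values kept their call and direction, and 984 of 1004 member values kept their side of the threshold. Of the 427 values not called on either side, 44 changed sign. The 20 changed calls were all in Ccr2. Its low dose value on day 6 passed without background correction (0.57, adjusted p = 0.0372), with Cy5 alone (0.46, 0.00198), in the authors' deposited table (0.58, 0.0339), with only the groups compared (0.40, 0.0278) and with the slide as a block (0.37, 0.0347). The change of its high dose effect passed with Cy5 alone (-0.70, 0.000437) and with the slide as a block (-0.57, 0.0129). With Agilent's processed signals Ccr2 no longer passed at the high dose on day 6 (1.16, 0.0556), nor between the days at the high dose (-1.06, 0.0781) or the low dose (-1.15, 0.0974). The cause was not tested. Leaving out 1 rat at a time, these Ccr2 values ran from 0.34 to 0.45 for the low dose on day 6, from -0.51 to -0.39 for the low dose between the days and from -0.60 to -0.40 for the change of the high dose effect. Over all genes, the count past the threshold ran from 573 to 1688 (1238 as reported) for the low dose on day 6 and from 1008 to 2591 (2188) for high against low dose. On day 28 it ran from 8 to 326 (34) for the high dose, from 2 to 6 (2) for the low dose and from 9 to 35 (26) between them. Between the days it ran from 127 to 2495 (543) in air rats and from 749 to 3006 (2184) in low dose rats, and from 1623 to 3824 (3084) and 159 to 473 (359) for the changes of the high and low dose effects. The share of calls that were higher moved with the scaling. It was 57.7% for the high dose on day 6 and as low as 43.6% with median centring, 74.0% for the low dose and as low as 61.6% with Cy5 alone, and 67.5% for high against low dose and as low as 53.8% in the authors' deposited table. Between the days it was 40.4% in high dose rats (26.4% to 53.9%), 33.0% in low dose rats (up to 47.2%) and 63.2% in air rats (as low as 23.6%), and 32.8% (up to 49.9%) and 15.9% (up to 31.4%) for the changes of the high and low dose effects. Median centring moved the median of all genes to 0.11 for the low dose and -0.15 for high against low dose on day 28, to -0.11 between the days in air rats and to 0.15 for the change of the low dose effect. Without air rat 4 of day 6, the receptor list had 4 higher genes at the high dose in place of 3, the monocyte growth factor list 5 in place of 6, the heart muscle list 1 in place of 0 and the endothelial list 2 lower in place of 3. No paired analysis was possible because the groups share no rat numbers.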
